A study of Mus musculus with 4 samples.

Results

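The genes described here encode the channels and transporters that carry the electrical response of an olfactory sensory neuron to odour. They were chosen by symbol and role, with earlier results of these data known: Cnga2, Cnga4 and Cngb1, the subunits of the olfactory cyclic nucleotide-gated channel, Ano2, a calcium-activated chloride channel, Slc12a2, a sodium-potassium-chloride cotransporter, and Slc24a4, a potassium-dependent sodium/calcium exchanger. All 6 were among the 23337 gene symbols counted in each library. Cells positive for the red fluorescent protein Tomato were sorted from the olfactory epithelium of 4 mice, and RNA of each mouse gave 1 sequencing library. The 2 control libraries held Lmnb1+/- cells and the 2 mutant libraries Lmnb1-/- cells. All mice were of mixed background, carried K5Cre and a Cre-dependent tdTomato reporter, received 50 mg/kg methimazole, which destroys the epithelium, and recovered for 4 weeks. Because K5Cre acts in horizontal basal cells, a resident stem cell, the sorted cells were these stem cells and the progenitors, neurons and supporting cells that they had produced, and not neurons alone. Each experimental group held 1 control and 1 mutant of the same parents, age, sex, treatment and library preparation, and per the design text of the series group 1 differed from group 2 in treatment, parents, age and sex. The labels give both groups the same dose and recovery time, and how the treatment differed is not stated in them. No age is given here because the labels state none.

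In the cilia of a mature olfactory sensory neuron, odorant receptors activate the G protein subunit encoded by Gnal, adenylyl cyclase 3 makes cyclic AMP, and cyclic AMP opens the cyclic nucleotide-gated channel. Calcium that enters through this channel opens the chloride channel encoded by Ano2. Chloride then leaves the cell, because the Slc12a2 cotransporter has loaded the neuron with chloride, and this outward flow amplifies the depolarization. The Slc24a4 exchanger removes the calcium again and so helps to end the response.

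The 4 libraries held between 14833396 and 23704638 counts in genes. At these depths 3 counts corresponded to between 0.127 and 0.202 CPM (counts per 1000000 counts of the library), and every member gene had at least 442 counts in every library, so that counting error was small beside the difference between mice. Levels below are CPM after scaling of library sizes by trimmed means of M-values (TMM). Levels of different genes are compared only as RPKM, the same values divided by the total exon length of the gene in kilobases. The mutant 1 library stood apart, with 39.4% of its uniquely aligned reads outside annotated genes (22.1% to 24.9% in the other libraries) and 1603 genes at 0 counts (5173 to 6053 in the others). In that library, 2559 genes that had no count elsewhere had a median of 6 counts, while the member genes there had between 758 and 16768 counts. Lmnb1, the targeted gene, was at 20.6 and 18.8 CPM in control 1 and control 2 and at 14.1 and 10.1 CPM in mutant 1 and mutant 2. Its log2 fold change was -0.72 (SE 0.31, adjusted p = 0.195, edgeR), below the control in both groups, and the counts do not separate the deleted part of the gene from the rest.

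Transcripts of the channel subunits, of Ano2 and of Slc24a4 were less abundant in mutant than in control cells, while the change of Slc12a2 did not pass the test. Of the 6 members, 5 passed as lower in mutant cells and 0 as higher with the edgeR likelihood-ratio test of genotype and experimental group, at an adjusted p of 0.05. Over all 15438 genes tested, 4.3% passed as lower. All 6 passed the filter on low counts, which asked for more than 1 CPM in at least 2 libraries. The median log2 fold change of the 6 was -1.33, against -0.01 over all genes tested. The mutant lay below the control of its own group for 6 of 6 members in both groups, a pattern that 32.9% of all tested genes had. Both mutants lay below both controls for only 2 of the 6, Cngb1 and Slc24a4, and this held for 13.3% of all tested genes.

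**Figure D1:**
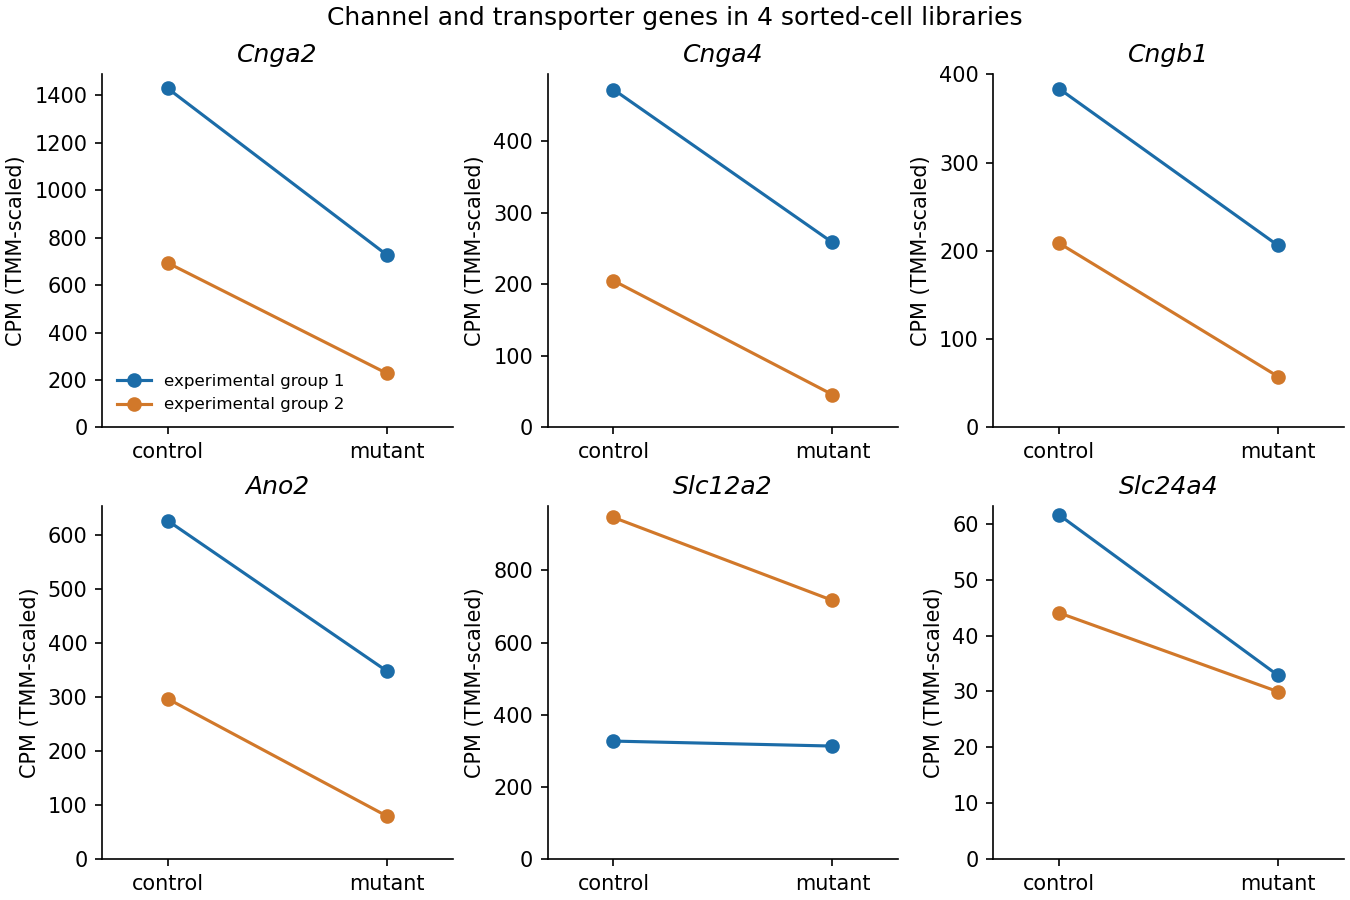
Level of each channel or transporter gene in TMM-scaled CPM (vertical axes, starting at 0) in control and mutant cells, 1 point per mouse, with a line joining the control and the mutant of each experimental group. Lines fall in both groups for every gene, but those of Slc12a2 lie far apart, with group 2 at 947 and 717 CPM and group 1 at 327 and 313 CPM.

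Cnga2 encodes the principal subunit of the channel, the one that can form a channel by itself. It is an X-linked gene (mm10, chrX:71991849-72010218, plus strand, 7 exons in its longest GENCODE M21 transcript). The control mice of groups 1 and 2 were at 1429 and 693 CPM, and the mutant mice at 727 and 228 CPM. Each mutant was therefore below its matched control, retaining 50.9% of the control level in group 1 and 32.9% in group 2, but mutant 1 was slightly above control 2. The log2 fold change was -1.29 (SE 0.28, 95% interval -1.84 to -0.74, adjusted p = 0.00058, edgeR).

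Cnga4 encodes a modulatory subunit that takes part in the adaptation of the channel to calcium (chr7:105404568-105408742, plus strand, 6 exons). Its level was 473 and 205 CPM in the controls of groups 1 and 2, and 259 and 45.9 CPM in the mutants. Mutant 1 again lay above control 2, and mutant 2 was lowest. Cnga4 had the most negative log2 fold change of the 6 genes, at -1.51 (SE 0.29, 95% interval -2.08 to -0.94, adjusted p = 9.85e-05, edgeR), with 54.7% of the control level left in group 1 and 22.4% in group 2.

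Cngb1 encodes the other modulatory subunit, which is needed for the channel to reach the cilia (chr8:95239045-95306585, minus strand). Its olfactory form is one of several products of the gene. The annotation holds 10 transcripts, and counts per gene cannot separate them. Cngb1 was at 384 and 209 CPM in the controls and at 206 and 57.7 CPM in the mutants of groups 1 and 2, so that the genotypes did not overlap, but only by the small gap between control 2 and mutant 1. The log2 fold change was -1.37 (SE 0.26, 95% interval -1.87 to -0.87, adjusted p = 3.47e-05, edgeR).

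The subunit transcripts kept similar proportions to each other in 3 of the libraries. The RPKM of Cnga4 was 38.4% and 34.4% of that of Cnga2 in the controls and 41.3% and 23.4% in the mutants of groups 1 and 2. For Cngb1 it was 8.89% and 9.97% in the controls and 9.38% and 8.37% in the mutants. The Cngb1 values are low in part by construction, since its exon length of 9.36 kb counts the exons of all its transcripts. Mutant 2 thus had the lowest share of Cnga4 relative to Cnga2, while the share of Cngb1 stayed within a narrow range. These ratios of single libraries carry no test.

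Because the levels of Cnga2, Cnga4, Cngb1 and Ano2 moved together over the libraries, the upstream sequence of the genes was searched for the binding motifs of 2 kinds of factor that act at olfactory neuron genes. RefSeq windows of GRCm38.p6 (the mm10 assembly), matched by symbol, were searched for 5 members, with 7 start sites in all. The 250 bases before each start were searched on both strands. Slc12a2 was left out of this search, so whether its upstream sequence holds either motif was not tested. The motif TCCCNNGGG, a form of the Olf/Ebf site, lay in 2 of the 7 member windows and in 5.60% of 32851 windows of all genes. Those 2 windows belong to Cnga2 and to the third start site of Ano2. The homeodomain motif TAATTA, which does not overlap it, lay in 0 of the 7 and in 4.84% of all windows. The stretches around the matches are shown because they hold the only matches in the 7 windows searched; the capitals mark the motif, in the orientation of the gene, and its first base lies 67 bases before the start in both. The first is at chrX:71991752-71991820 and the second, where the match reads on the minus strand, at chr6:125711091-125711159.
Cnga2: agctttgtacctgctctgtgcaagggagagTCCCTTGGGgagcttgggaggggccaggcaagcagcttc
Ano2: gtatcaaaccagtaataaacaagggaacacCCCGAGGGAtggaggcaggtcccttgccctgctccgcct
A match is a description of letters and no measurement of binding, and windows without one were those of Cnga4, Cngb1, Slc24a4 and the other 2 Ano2 starts. The only Cngb1 window lay at the upstream end of the annotated gene. Whether the olfactory form of Cngb1 starts there was not tested.

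Ano2, the chloride channel of the cilia (chr6:125690419-126040126, plus strand, 26 exons), followed the channel subunits. Control mice were at 626 and 296 CPM, and mutant mice at 348 and 79.6 CPM, in groups 1 and 2. As for Cnga2, mutant 1 was above control 2, and mutant 2 was lowest. The log2 fold change was -1.37 (SE 0.28, 95% interval -1.93 to -0.81, adjusted p = 0.000284, edgeR), with 55.6% of the control level left in group 1 and 26.9% in group 2. Its RPKM was 25.2%, 24.6%, 27.5% and 20.1% of that of Cnga2, controls first and group 1 before group 2.

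Slc24a4, the exchanger (chr12:102128733-102267091, plus strand, 16 exons), was the least abundant member per length, with a mean of 9.31 RPKM. Its level was 61.6 and 44.1 CPM in the controls of groups 1 and 2 and 32.9 and 29.96 CPM in the mutants. Both mutants were below both controls and lay close to each other. The log2 fold change was -0.73 (SE 0.19, 95% interval -1.11 to -0.36, adjusted p = 0.00507, edgeR). Unlike the 4 channel genes, Slc24a4 retained less of the control level in group 1 (53.4%) than in group 2 (68.0%).

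Slc12a2, the cotransporter (chr18:57878678-57946821, plus strand, 27 exons), was at 327 and 947 CPM in the controls of groups 1 and 2, and at 313 and 717 CPM in the mutants. The libraries thus separated by experimental group and not by genotype, with both group 2 libraries above both group 1 libraries. The genotype effect was -0.23 on the log2 scale (SE 0.26, adjusted p = 0.768, edgeR). The 95% interval of -0.74 to 0.27 allows both a fall of moderate size and a small increase. Mutant 1 held 95.8% of the level of control 1, and mutant 2 held 75.7% of that of control 2. Whether the genotype effect of Slc12a2 differed from those of the channel genes was not tested.

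Per length, the order of the mean levels over the 4 libraries was Cnga2 (249 RPKM), Cnga4 (92.2), Ano2 (62.7), Slc12a2 (52.7), Cngb1 (22.9) and Slc24a4 (9.31). The ranges of neighbours in this order overlapped in every case. Cnga2 spanned 73.6 to 462 RPKM, Cnga4 17.2 to 177, Ano2 14.8 to 116, Slc12a2 28.7 to 86.7, Cngb1 6.17 to 41.0 and Slc24a4 6.62 to 13.6. Within each library the order Cnga2, Cnga4, Ano2, Cngb1 nevertheless held in 4 of 4. Slc12a2 moved through it, from below Cngb1 in control 1 (29.96 against 41.0 RPKM) to just below Cnga2 in mutant 2 (65.6 against 73.6 RPKM).

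Other tests gave part of these calls. With the edgeR quasi-likelihood test the same 5 members passed, with adjusted p-values between 0.00942 (Cnga2) and 0.0405 (Slc24a4), while 3.2% of all genes passed as lower. With DESeq2, 2 members passed, Cnga2 (adjusted p = 8.28e-13) and Cngb1 (adjusted p = 1.47e-08), where 5.63% of 9452 genes with an adjusted p passed as lower. Cnga4 (0.108), Ano2 (0.0822) and Slc24a4 (0.0542) did not pass in DESeq2. That tool kept the own, higher dispersion estimates of Cnga4 (0.168) and Ano2 (0.124) as outliers. It drew that of Cnga2 from 0.0479 down to 0.0117 and that of Cngb1 from 0.105 down to 0.0199. For Slc24a4 the estimate was drawn up from 0.0123 to 0.0293. Without the filter on low counts 4 members passed, where 2.31% of 21975 genes did, and Cnga2 was lost (adjusted p = 0.316, edgeR) as its fitted dispersion was 0.166 in place of 0.0380. Without the experimental group in the model, 0 of the 6 members and 0% of all genes passed as lower. At an unadjusted p under 0.05 that fit had 0 members and 348 genes in either direction, against 2460 with the group in the model.

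The channel genes and Slc12a2 also differed between the experimental groups. Relative to group 1, group 2 was lower for Cnga2 (log2 fold change -1.36, SE 0.28, adjusted p = 3.01e-05), Cnga4 (-1.84, SE 0.29, adjusted p = 6.20e-08), Cngb1 (-1.35, SE 0.26, adjusted p = 4.47e-06) and Ano2 (-1.60, SE 0.28, adjusted p = 1.11e-06) in the same edgeR fit. Slc12a2 was higher in group 2 (1.36, SE 0.26, adjusted p = 3.56e-06), by 2.89 times between the controls and by 2.29 times between the mutants. Slc24a4 had a difference of -0.31 (SE 0.19, adjusted p = 0.213). Of all genes tested, 14% passed as lower and 17.7% as higher in group 2. Treatment, parents, age and sex differ between the groups per the design text, sample preparation and sequencing were shared only within a group, and these cannot be told apart.

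Markers of cell types moved with both differences. Of 13 markers of mature olfactory sensory neurons, 12 passed as lower in mutant cells and 0 as higher, and their summed level was 21587 and 10741 CPM in the controls of groups 1 and 2 and 12011 and 3482 CPM in the mutants. This is the same order of libraries as for Cnga2, Cnga4 and Ano2. The largest part of the sum was Omp (9665 and 3267 CPM in the controls, 5359 and 912 CPM in the mutants). Not every marker had this order, since control 2 lay above mutant 1 for Gnal, Stoml3, Fstl5, Pde1c and Slc17a6. Sustentacular cells are the supporting cells of the epithelium. For them, 0 of 7 markers passed between genotypes, but 6 of 7 passed as higher in group 2, and the sum was 5127 and 13298 CPM in the controls and 5681 and 15995 CPM in the mutants. Slc12a2 was likewise higher in both group 2 libraries. Within each group, however, Slc12a2 was lower in the mutant than in the control, whereas the sustentacular sum was higher. The gland and leukocyte sums below had the same order of libraries as Slc12a2. Which cells gave the Slc12a2 transcripts was not tested. The sums of the other lists are given in the same order, controls first. Of 8 globose basal cell and progenitor markers, 4 passed as higher in mutant cells (summed level 267, 271, 403 and 475 CPM), as did 2 of 6 horizontal basal cell markers (1980, 1391, 2803 and 1843 CPM). Of 8 immature neuron markers 1 passed as lower (2126, 1653, 1735 and 1454 CPM), as did 3 of 4 ciliated cell markers (452, 271, 350 and 142 CPM) and 1 of 5 microvillar cell and ionocyte markers (136, 124, 85.3 and 90.9 CPM). None of 3 gland markers (738, 1060, 625 and 1050 CPM), 5 ensheathing glia markers (77.1, 27.9, 31.5 and 38.3 CPM) and 7 tested leukocyte markers (414, 719, 211 and 633 CPM) passed in either direction. Most of the leukocyte sum came from Lyz2, a lysozyme gene named after its values were seen (223, 693, 154 and 584 CPM), and of the 7 markers 3 passed as lower and 1 as higher in group 2. Of 3 erythroid genes, the haemoglobin genes Hba-a1 and Hba-a2 were at 0 in every library, and Alas2, the remaining one, at 3.72, 3.81, 5.38 and 3.32 CPM, did not pass between genotypes. In bulk RNA, fewer mature neurons and less of a transcript in each neuron cannot be told apart.

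**Figure D2:**
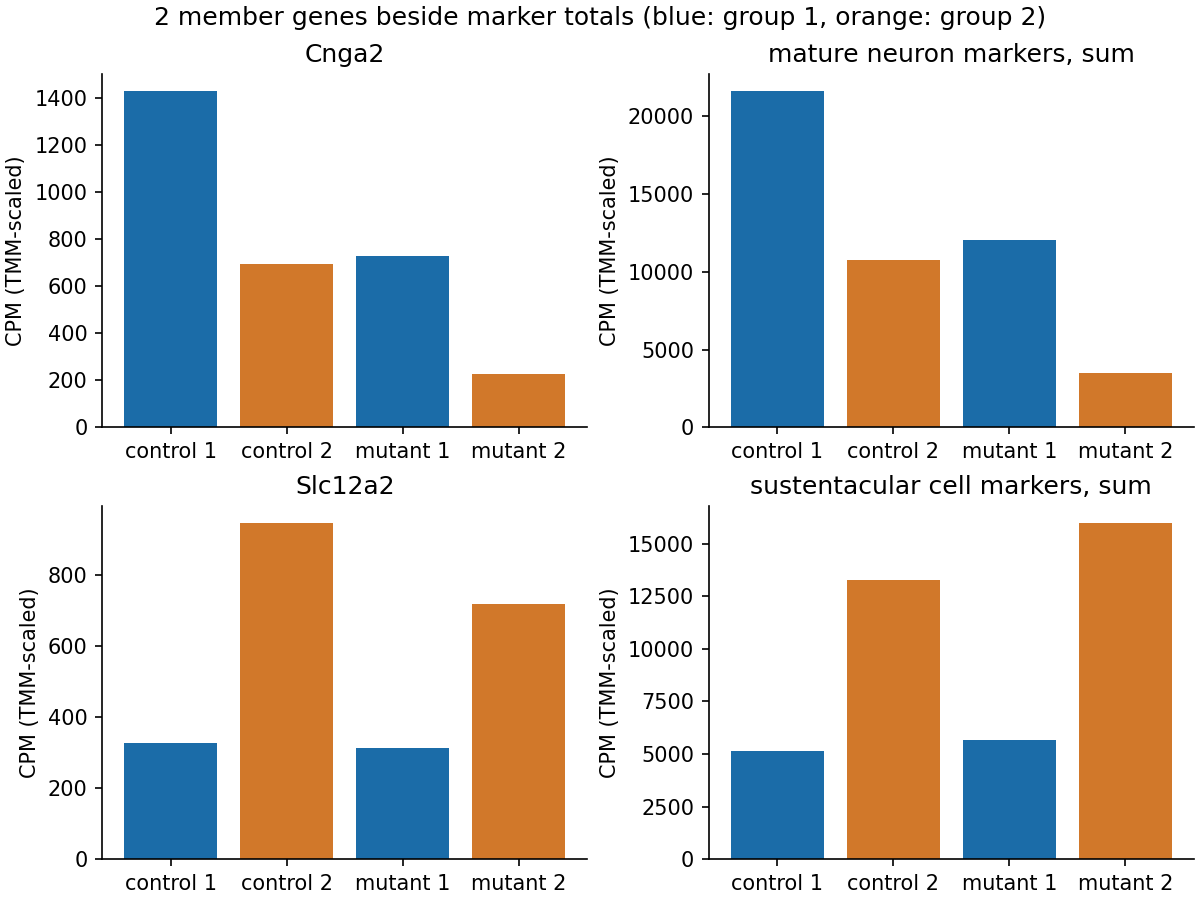
Bars give the level in each library (vertical axes, TMM-scaled CPM, starting at 0) of Cnga2 and Slc12a2 on the left and the summed level of 13 mature neuron markers and 7 sustentacular cell markers on the right. Cnga2 and the mature neuron sum share their order of libraries. Slc12a2 and the sustentacular sum are both higher in the 2 group 2 libraries. Within each group Slc12a2 is lower in the mutant, whereas the sustentacular sum is higher. The gland and leukocyte sums, not drawn, have the order of Slc12a2. Omp is the largest part of the mature neuron sum, and not every marker in it has this order.

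The members were therefore also expressed relative to mature neuron markers, with library factors taken from the 13 markers, none of which is a member. On this scale 0 of the 6 members passed as lower, and 0.0518% of all genes did. The log2 fold changes were -0.13 for Cnga2 (SE 0.40, 95% interval -0.91 to 0.65), -0.36 for Cnga4 (SE 0.38, -1.11 to 0.40), -0.22 for Cngb1 (SE 0.37, -0.95 to 0.51) and -0.21 for Ano2 (SE 0.39, -0.97 to 0.54). All 4 intervals include 0 and reach down to between -1.11 and -0.91. Slc24a4 turned to 0.42 (SE 0.40, -0.36 to 1.21). Slc12a2 turned to 0.93 (SE 0.40, 0.13 to 1.72) and passed as higher (adjusted p = 0.0383, edgeR). That scaling moved the median of all genes by 1.16 to 1.15, and 65.5% of all genes passed as higher on it, so that Slc12a2 remained below the median gene.

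**Figure D3:**
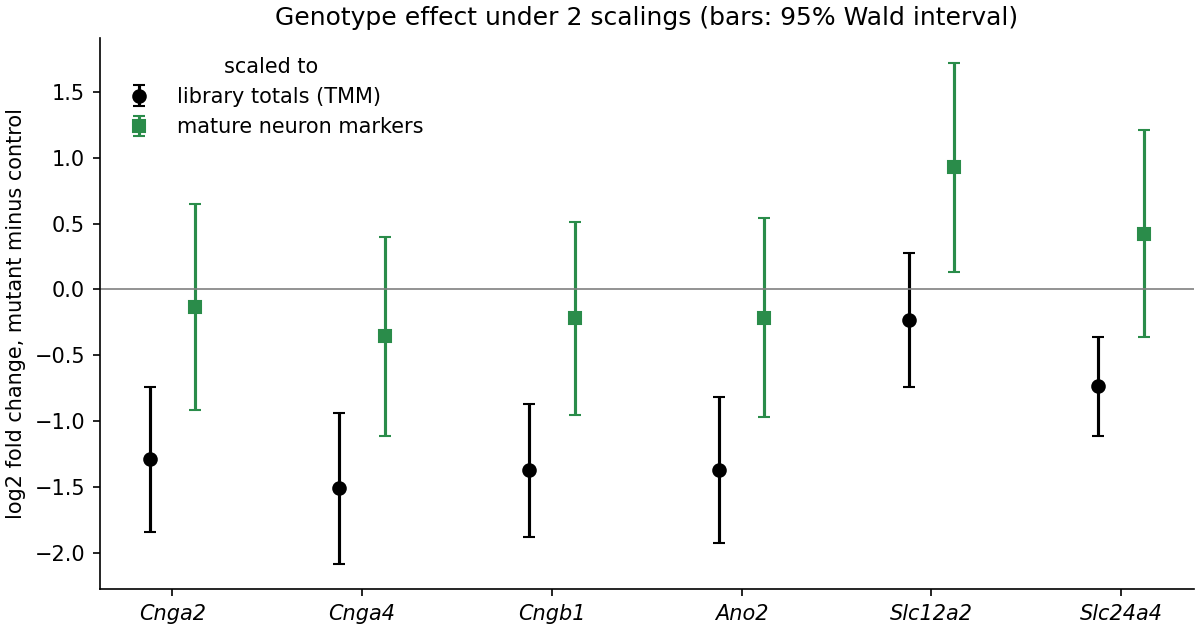
Log2 fold change of each gene, mutant minus control (vertical axis), from fits over the 4 libraries, scaled to library totals (black circles) or to 13 mature neuron markers (green squares), with 95% Wald intervals. Relative to the markers, the 4 channel genes lie between -0.36 and -0.13 with intervals that include 0, and Slc12a2 lies at 0.93.

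The same comparison was made within each group without a fit. The median log2 ratio of the mature neuron markers, mutant to control, was -0.82 in group 1 and -1.66 in group 2. The ratio of Cnga2 differed from it by -0.15 and 0.06, that of Cngb1 by -0.07 and -0.19, and that of Ano2 by -0.02 and -0.23. Cnga4 differed by -0.05 in group 1 and by -0.50 in group 2. Slc24a4 lay at the marker median in group 1 (-0.08) and well above it in group 2 (1.11), while Slc12a2 lay above it in both (0.76 and 1.26). These ratios rest on 1 mouse per genotype each and carry no test.

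How alike the members were was described by the root mean square difference of their log2 CPM, each centred on its mean over the 4 libraries, so that 0 is an identical pattern. Cnga2 and Cngb1 differed by 0.093, and Cngb1 was the gene ranked 12 in nearness to Cnga2 among 15437 others. Cnga4 and Ano2 differed by 0.155 (rank 16), and Cngb1 and Ano2 by 0.124 (rank 22). Cnga2 and Cnga4 were less alike, at 0.316 (rank 321). Slc24a4 stood at 0.643 from Cnga2 (rank 1820) and Slc12a2 at 1.46 (rank 13994), so that these 2 transporters were less like Cnga2 in pattern than the channel genes were. With 4 libraries, many genes come near any pattern by this measure.

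The tested genes nearest to each member were found in the same way. Nearest to Cnga2 were Rtn4rl1 (0.031), a Nogo receptor homologue at a mean of 65.0 CPM, and S100a3 (0.042), at only 2.19 CPM. For Cnga4 they were Olfr1183 (0.032), an odorant receptor at 1.14 CPM, and Rnf183 (0.101) at 20.2 CPM. Cngb1 had 6430548M08Rik (0.030) at 80.5 CPM and Begain (0.064) at 1.16 CPM. Ano2 had Kirrel2 (0.036), an adhesion molecule of olfactory axons at 516 CPM, and Gldc (0.042), a subunit of the glycine cleavage system at 28.8 CPM. For Slc12a2 they were Ap3m1 (0.027), an adaptor protein subunit at 50.2 CPM, and Adam9 (0.056), a membrane protease at 94.99 CPM. For Slc24a4 they were Acyp2 (0.0080) at 10.1 CPM and Il17rb (0.018) at 4.98 CPM. Of the 12 genes named, Rtn4rl1, Rnf183, 6430548M08Rik, Kirrel2 and Gldc passed as lower in mutant cells, with log2 fold changes between -1.54 (Rnf183) and -1.33 (Gldc), and Kirrel2 is itself one of the 13 mature neuron markers.

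Upstream of the channel, the other genes of the odour cascade had a median log2 fold change of -1.06, and 10 of 16 passed as lower and 0 as higher. The 4 with the smallest p were Pde4a (-1.04, SE 0.20, adjusted p = 3.97e-05) and Pde1c (-1.10, SE 0.22, adjusted p = 9.94e-05), phosphodiesterases that break down cyclic AMP, Adcy3 (-1.29, SE 0.28, adjusted p = 0.000583), the adenylyl cyclase, and Ric8b (-1.16, SE 0.27, adjusted p = 0.00113), which assists the G protein. Adcy3 was at 1745 and 667 CPM in the controls and at 874 and 223 CPM in the mutants of groups 1 and 2, and as for Cnga2 mutant 1 lay above control 2. This list shares 8 genes with the mature neuron markers and is not independent of them.

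Of the relatives of the cyclic nucleotide-gated channel, the other CNG subunits were near 0 and Hcn2 was the most abundant. Cnga1 and Cngb3, subunits of the photoreceptor channels, had 10 and 23 counts in mutant 1 and 0 in the other 3 libraries. Cnga3, also a photoreceptor subunit, had 11 and 17 counts in the controls and 32 and 0 in the mutants, and none of the 3 could be tested. Of the 4 related HCN genes, which encode channels opened by hyperpolarization and modulated by cyclic nucleotides, Hcn2 (205 and 98.9 CPM in the controls of groups 1 and 2, 116 and 32.9 CPM in the mutants) and Hcn4 (39.0 and 29.3 CPM in the controls, 24.4 and 11.7 CPM in the mutants) fell in mutant cells. The log2 fold change was -1.20 for Hcn2 (SE 0.21, adjusted p = 7.81e-06) and -0.99 for Hcn4 (SE 0.26, adjusted p = 0.00507), both with edgeR. For Hcn2, as for Cnga2, Cnga4 and Ano2, mutant 1 lay above control 2.

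No relative of Ano2 or Slc12a2 passed the test. Of 8 anoctamin genes tested, 0 passed in either direction, with a median log2 fold change of -0.08. The most abundant, Ano1, a calcium-activated chloride channel of secretory epithelia, was at 77.8 and 108 CPM in the controls of groups 1 and 2 and at 81.4 and 164 CPM in the mutants (log2 fold change 0.33, adjusted p = 0.423), and Ano6, a lipid scramblase, had a log2 fold change of 0.07 (adjusted p = 0.923). Ano4, Ano5, Ano7 and Ano9 were at low levels, with means of 1.03 to 3.78 CPM. Their log2 fold changes were -1.09, -1.67, -0.55 and 0.73 (SE 0.63 to 1.13), so that not passing says little about them. Among 6 SLC12 cotransporters tested, 0 passed in either direction, with a median of -0.17. The least abundant of them, Slc12a5 and Slc12a8, at means of 3.35 and 9.59 CPM, had log2 fold changes of -1.48 (SE 0.68) and 0.67 (SE 0.41). Slc12a7 and Slc12a4, potassium-chloride cotransporters that move chloride out of cells, had log2 fold changes of -0.03 (adjusted p = 0.979) and 0.50 (adjusted p = 0.0854).

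Among genes that remove calcium from cells, 2 of 11 tested passed as lower and 0 as higher, with a median of 0.09. These were Slc8a1, a sodium/calcium exchanger (240 and 165 CPM in the controls of groups 1 and 2, 132 and 56.0 CPM in the mutants, log2 fold change -1.21, SE 0.22, adjusted p = 1.39e-05), and Slc24a2, a relative of Slc24a4 (155 and 184 CPM in the controls, 94.8 and 59.1 CPM in the mutants, log2 fold change -1.17, SE 0.23, adjusted p = 8.03e-05). For both, both mutants lay below both controls. The median of this list rests in part on genes at low levels. Slc24a1, Slc24a3, Slc24a5, Slc8a2, Slc8a3 and Atp2b2 had means of 1.17 to 2.36 CPM, with SEs of 0.80 to 1.16. Of 14 other chloride channel genes, Ttyh1 passed as lower (-1.24, SE 0.37, adjusted p = 0.0254), though not with the quasi-likelihood test (adjusted p = 0.0756). The median was -0.18 for these chloride channels and -0.08 for 11 tested genes of the sodium pump and of the WNK kinases, which regulate chloride cotransporters. Of those 11 genes, 1 passed as lower and 0 as higher. Best2, a bestrophin chloride channel once proposed for the olfactory response, had 11 and 1 counts in the controls and 12 and 5 in the mutants, and could not be tested.

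Genes that assemble cilia or deliver proteins to them, the place where these channels work, had a median log2 fold change of -0.52, and 7 of 16 passed as lower and 0 as higher. Only 4 of the 16 passed with the quasi-likelihood test. The 4 with the smallest p in the likelihood-ratio test were Bbs7 (-0.88, SE 0.21, adjusted p = 0.00153), Bbs1 (-0.68, SE 0.17, adjusted p = 0.00377) and Bbs2 (-0.58, SE 0.17, adjusted p = 0.0196), which encode parts of the BBSome, a coat complex for ciliary cargo, and Kif3b (-0.70, SE 0.18, adjusted p = 0.00469), a motor subunit of intraflagellar transport. Markers of motile ciliated cells, 3 of 4 of which passed as lower, moved in the same direction, and their part in this result was not tested.

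**Figure D4:**
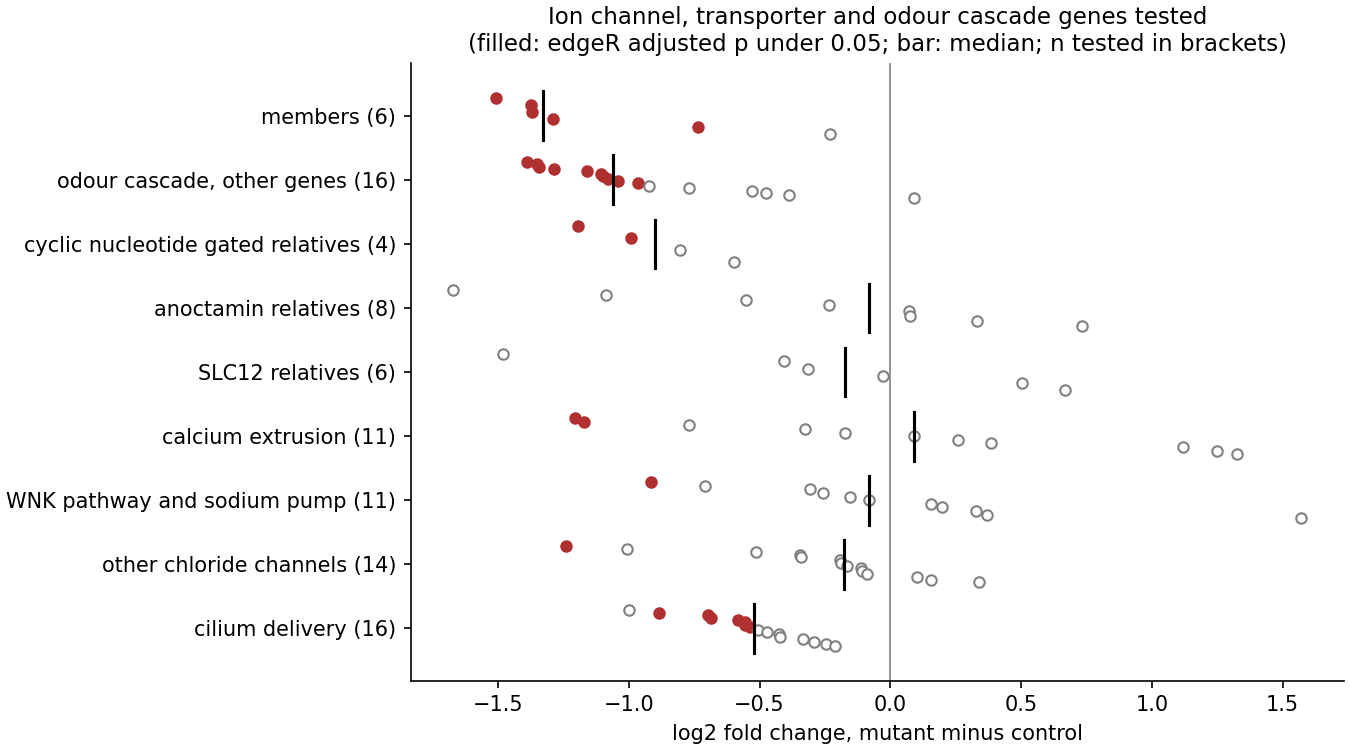
Log2 fold change of each tested gene, mutant minus control (horizontal axis), for the 6 members and 8 lists of related genes; filled points passed the edgeR test at an adjusted p of 0.05, and bars are medians. The members and the odour cascade genes have medians of -1.33 and -1.06, while the relatives of Ano2 and Slc12a2 have medians of -0.08 and -0.17 and no filled point. Some of these relatives were at low levels, where the test had little precision.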

How the data were processed

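RNA-seq counts of 4 libraries were used. The authors depleted ribosomal RNA, removed remaining ribosomal reads and aligned single-end reads to mm10; the submitters' processing notes name Bowtie2 2.0.6, TopHat2 2.0.7 and HTSeq. The authors deposited unnormalized counts, 1 per gene symbol and library, and whether counting used strand is not given in the sources used here. The 5 tally lines were left out. HTSeq sets aside reads with several alignments. These made up 67710764 and 62182762 alignments in control 1 and mutant 1, and 10308536 and 6757456 in control 2 and mutant 2. The experimental groups thus also differed in this respect.

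Genes above 1 CPM in at least 2 libraries entered the test of edgeR 4.0.16 (R 4.3.3, TMM, likelihood ratio, genotype and experimental group, Benjamini-Hochberg adjustment, threshold 0.05), following the methods of the study, except for the tally lines, which the study's code did not remove before filtering and scaling. Standard errors and 95% intervals are Wald values. Exon lengths and positions are from GENCODE M21 (GRCm38, the same assembly as mm10). Ratios within a group used log2 CPM with a prior count of 2. The alternatives were the quasi-likelihood test, DESeq2 1.42.0, other scalings, filters, thinned counts and left-out libraries. The fits were first tested on simulated data.

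The numbers pair the libraries because the labels and design text say that the mice of an experimental group share parents, age, sex and treatment. Deviations of same-numbered libraries from the mean of their genotype had a correlation of 0.52 across genes. Each library is 1 mouse. No libraries were near-identical, with chi-square values per degree of freedom between 47.0 and 278.

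The members and gene lists were chosen with earlier results of these data known. The genes named are the members, Lmnb1, up to 4 genes past the threshold per list by smallest p (or up to 2 by highest mean CPM where none passed), and the 2 nearest genes of each member. Cnga1, Cnga3, Cngb3, Best2, Hba-a1, Hba-a2, Clcn3, Cftr and Wnk1 were named after their values were seen. The same holds for the single markers named beside the mature neuron sum, and for relatives and calcium genes named for their low levels. One gene that this rule would name is not reported here.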

Additional observations from a re-analysis of the deposited data

Results flagged for a closer look

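The mutant 1 library had 39.41% of its uniquely aligned reads outside annotated genes, against 23.8% in control 1, 24.9% in control 2 and 22.1% in mutant 2. It stood out as signal outside the gene counts that was above the level of both controls. The member genes had 758 to 16768 counts in that library, far above the 95th percentile of 22 counts among the 2559 genes that had counts there and nowhere else. In group 2, which does not hold that library, the mutant was below the control for 6 of 6 members, with log2 ratios from -2.16 (Cnga4) to -0.40 (Slc12a2). Over all tested genes the median log2 ratio in group 2 was 0.0002, so that lying below the control was common by itself. These ratios rest on 1 mouse per genotype and carry no test.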

How the results depend on the processing

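Of the 6 members, 5 passed as lower in mutant cells in the likelihood-ratio test, with the quasi-likelihood test, with RLE size factors, with thinned counts and with a filter of more than 1 CPM in all 4 libraries, 4 without a filter and 2 with DESeq2. Over all genes, 664 passed as lower and 197 as higher in the main fit. As lower, 648 genes passed with RLE size factors, 664 with thinned counts and 702 with the filter on all 4 libraries. The quasi-likelihood test gave 494 lower and 117 higher, DESeq2 gave 532 lower, and the fit without a filter 508 lower. With no replicate block, that is without the pairing by experimental group, 0 genes passed as lower and 6 as higher, and 0 members passed. Scaled to mature neuron markers, 8 genes passed as lower, 10112 as higher and 0 members as lower, and the values reversed sign for Slc12a2 (0.93) and Slc24a4 (0.42). Leaving out 1 library needs a fit without the block, in which the lone library is assumed to vary like the pair; 0 to 5 genes then passed as lower, 3 to 33 as higher and 0 members, whichever of the 4 libraries was left out. The log2 fold change then ranged from -2.23 to -0.51 for Cnga2, -2.89 to -0.35 for Cnga4, -2.37 to -0.49 for Cngb1, -2.54 to -0.37 for Ano2, -0.93 to -0.48 for Slc24a4 and -0.997 to 0.70 for Slc12a2, which was positive without control 2 (0.70) or mutant 1 (0.17). Between experimental groups, 4 members passed as lower and 1 as higher in every alternative run except without the filter, where 3 passed as lower and Cnga2 did not (adjusted p = 0.121, edgeR). Of all genes tested in the main fit, 14% passed as lower and 17.7% as higher in group 2. Those shares were not taken for the alternative runs. Apart from the dispersions of DESeq2 and of the fit without a filter, the cause of these changes was not tested. Each member had 442 counts or more in every library.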

Other observations

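Several chloride channel and chloride regulatory genes outside the odour response differed between the experimental groups in the direction of Slc12a2. Cftr, an epithelial chloride channel, was at 11.8 and 45.1 CPM in the controls of groups 1 and 2 and at 14.1 and 32.9 CPM in the mutants, higher in group 2 by 1.58 on the log2 scale (SE 0.26, adjusted p = 1.05e-07, edgeR). Wnk1, a kinase that regulates Slc12a2, was at 93.5, 263, 128 and 253 CPM in the same order (1.24, SE 0.22, adjusted p = 3.95e-07, edgeR). Clcn3, a chloride/proton exchanger of intracellular membranes, was at 70.6, 159, 71.1 and 136 CPM (1.05, SE 0.18, adjusted p = 1.37e-07, edgeR), and Ano6 and Ano1 were higher by 0.91 (SE 0.17, adjusted p = 1.31e-06, edgeR) and 0.75 (SE 0.19, adjusted p = 0.000956, edgeR). For each of these 5 genes both group 2 libraries were above both group 1 libraries, and none passed the test of genotype. Of all genes tested, 17.7% passed as higher in group 2, and 6 of 7 sustentacular cell markers did.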
